A study of Venturia canescens with 18 samples.

Results

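Courtship by a brother was compared with courtship by an unrelated male through RNA sequencing of female heads in the parasitoid wasp Venturia canescens. The comparison used all libraries labelled with these conditions, 12 of the 18 in the series: each group held 3 pools of heads, and each pool was sequenced as 2 technical replicates that were summed. All females were virgin and newly emerged, descended from wasps collected in French orchards and reared on a moth host, Ephestia kuehniella. Brother-courted females were boxed singly with an incompatible male, their brother, and unrelated-courted females with a compatible male, for 10 min at most. Per the labels' protocols, 10 heads were pooled per condition, without a statement of whether that number is per pool or whether the pools came from separate families or days, so the p-values below measure only the spread between these pools. Females were assigned to the conditions at random, per the labels, but the families behind each pool are not stated, so the kinship of the male and the families sampled cannot be told apart. Isolated females, 3 pools boxed without a male, entered no fit and are given as a further level beside the results.

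Venturia canescens, like other wasps, is haplodiploid: unfertilised eggs normally give males and fertilised eggs give females. Its sex is set by complementary sex determination, in which a fertilised egg that receives the same allele from both parents becomes a diploid male of poor fertility, so that mating with a brother is costly. Before mating, a female meets the male's scent, wing fanning and contact, and the head holds the antennae, eyes and brain that receive and process these cues. The comparison of both courted groups asked which head transcripts differ with the kinship of the male, since both groups met a male.

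The deposited table names its loci by XLOC identifiers and pairs them with no gene names, and 0 of its 16752 identifiers match a gene of the species in RefSeq, so functions, pathway members and markers of head tissue could not be assigned. Loci are therefore described as groups, and 4 are named by identifier. The brother pools held 73839115, 68684141 and 68571374 counts, and the unrelated pools 65809907, 77756638 and 103527471. Levels are given as CPM, counts scaled to library size with TMM factors, where 3 counts in a pool correspond to 0.0283 to 0.0468 CPM. After a filter on low counts, 15174 loci were tested. Across these loci, Spearman correlations between the technical replicates were 0.989 to 0.994.

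Brother pool 1 stood apart. The leading principal component of the 6 pools, with 52.4% of the variance of log2 CPM, placed it at 87.1. Brother pools 2 and 3 lay at -49.3 and -22.0 and the unrelated pools at -12.4 to 4.73, so the brother pools lay on both sides of the unrelated pools. In brother pool 1, 1244 loci were over 2-fold above the other 5 pools and 239 over 2-fold below them, against 4 to 72 and 46 to 272 loci in each of the others. The common biological coefficient of variation was 40.6% among the 3 brother pools, 15.6% between brother pools 2 and 3, and 13.2% among the unrelated pools. Each result is therefore given with and without brother pool 1.

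Brother pool 1 differed from the other brother pools more widely than from the unrelated pools, while brother pools 2 and 3 were close to each other. Brother pools 1 and 2 were over 2-fold apart at 3650 of the 15174 loci, more than any brother pool was from any unrelated pool (1008 to 2732 loci). Brother pools 2 and 3 differed by that much at 1061 loci, and the unrelated pools differed from each other at 507 to 896. The closest pair across the groups, brother pool 3 and unrelated pool 3, was over 2-fold apart at 1008 loci, fewer than the closest pair within the brother group. The median absolute log2 difference gave the reverse order for these 2 pairs. It was 0.177 between brother pools 2 and 3. Across the groups without brother pool 1 it was 0.181 to 0.266, the lowest being brother pool 3 and unrelated pool 3.

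**Figure D1:**
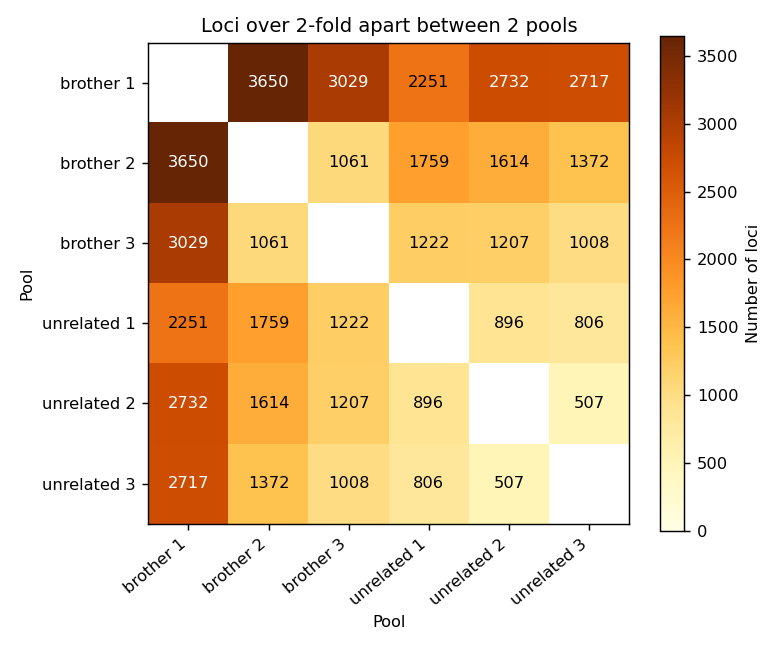
Number of loci over 2-fold apart (log2 CPM with a prior count of 2) between each pair of the 6 brother and unrelated pools, of 15174 loci. The row of brother pool 1 holds the highest counts, 2251 to 3650, and the unrelated pools differ from each other at 507 to 896 loci.

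With all 6 pools, a single locus passed the test, XLOC_010657, which was lower after courtship by a brother. The edgeR quasi-likelihood test called 0 loci higher and 1 lower at an adjusted p under 0.05, or 0.00659% of those tested. An unadjusted p under 0.05 was reached by 323 higher and 310 lower loci, 4.17% of all tested. DESeq2 called 32 higher and 70 lower in the same pools, and limma-voom called 0 in either direction. XLOC_010657 had 10, 11 and 4 counts in brother pools 1 to 3, or 0.127, 0.172 and 0.0611 CPM. In unrelated pools 1 to 3 it had 4299, 14257 and 13405 counts, or 65.0, 179 and 126 CPM. The groups did not overlap, and all brother pools, pool 1 included, lay near the counting floor. Means were 0.120 ± 0.0557 CPM after a brother and 123 ± 56.8 CPM after an unrelated male (SD, n = 3 each; log2 fold change -9.99 ± 0.58 SE; edgeR adjusted p = 0.0139). By summed counts, 25 against 31961, the level was 1057-fold lower (exact 95% interval 716 to 1633, counting error only). Isolated pools were at 155, 151 and 179 CPM, within the range of unrelated pools 2 and 3 or just above it. In bulk heads, fewer cells of a type and less RNA per cell cannot be told apart, here or in any result below. Leaving out brother pool 2, brother pool 3 or unrelated pool 3 ended the call (edgeR adjusted p = 0.208, 0.295 and 0.130), and no locus was then past the threshold, with 995, 451 and 340 loci at an unadjusted p under 0.05. Without unrelated pool 1, 4 lower loci were called.

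Without brother pool 1, 540 loci (3.56% of those tested) passed the same test: 359 (2.37%) were higher and 181 (1.19%) lower after courtship by a brother. Higher loci differed modestly, with 308 of the 359 under 2-fold and a median log2 fold change of 0.45. Of the 181 lower loci, 87 differed by under 2-fold, 42 by 2- to 8-fold and 52 by 8-fold or more. Unscaled library sizes gave 214 higher and 979 lower loci. That choice moved the median log2 fold change of all loci from -0.01 to -0.13. Of the 359 higher loci 203 stayed called, as did all 52 that were lower by 8-fold or more and the 129 other lower loci. All 359 and 181 kept their sign, but the smallest log2 fold changes among them, 0.23 and -0.27, exceeded that shift. Their sign is therefore no check on the scaling. The count fell to 7 without brother pool 2 as well (7 higher, 0 lower), to 272 without brother pool 3, and to 50 or 46 without unrelated pool 2 or 3. With 1 brother pool left, that pool is assumed to vary like the unrelated pools.

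**Figure D2:**
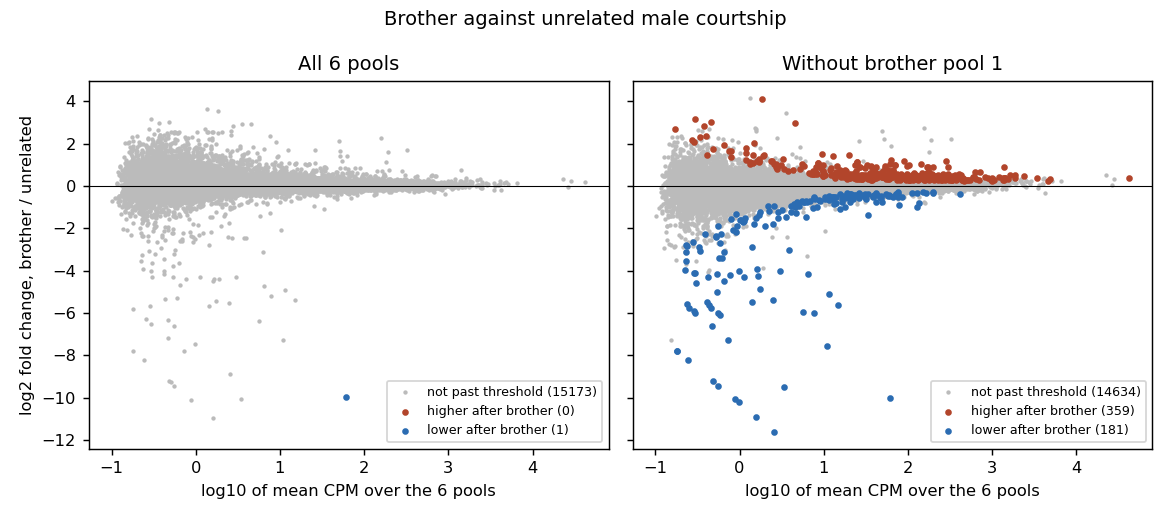
Log2 fold change of brother over unrelated pools against the log10 of mean CPM over the 6 pools for 15174 loci, with all 6 pools (left) and without brother pool 1 (right). Coloured points passed an edgeR adjusted p of 0.05: 1 lower locus on the left, 359 higher and 181 lower on the right, where most coloured points of low fold change are abundant and the lower loci reach below -11.

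The 2 higher loci named are those of lowest adjusted p without brother pool 1 among loci whose 3 brother and 3 unrelated pools did not overlap, so the side on which brother pool 1 lies is fixed by the choice. XLOC_012455 was at 11.2, 13.0 and 16.9 CPM in brother pools 1 to 3 and at 5.82, 4.85 and 5.02 CPM in unrelated pools 1 to 3. Brother pool 1 was the lowest of its group. Its log2 fold change was 1.53 ± 0.14 (SE; edgeR adjusted p = 0.0100) without brother pool 1 and 1.39 ± 0.19 (edgeR adjusted p = 0.239) with all 6 pools. Isolated pool 1 stood at 10.0 CPM and isolated pools 2 and 3 at 4.94 and 3.39 CPM, so an isolated pool came close to the brother range.

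XLOC_005748 was at 7.58, 10.1 and 6.50 CPM in brother pools 1 to 3 and at 1.12, 1.41 and 0.641 CPM in unrelated pools 1 to 3. Brother pool 1 lay between the other brother pools. Its log2 fold change was 2.99 ± 0.32 (SE; edgeR adjusted p = 0.0107) without brother pool 1 and 2.93 ± 0.34 (edgeR adjusted p = 0.175) with all 6 pools. Leaving out brother pools 1 and 2 together ended its call (edgeR adjusted p = 0.114). Isolated pool 2, at 7.01 CPM, lay inside the brother range, while isolated pools 1 and 3 were at 2.07 and 1.40 CPM. The level of this locus thus also varied between pools of females that met no male.

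The other lower locus named by the rule, XLOC_009968, was at 30.5, 15.3 and 19.3 CPM in brother pools 1 to 3 and at 40.3, 48.3 and 48.2 CPM in unrelated pools 1 to 3. Brother pool 1 was the highest of its group and closest to the unrelated pools. The log2 fold change was -1.39 ± 0.13 (SE; edgeR adjusted p = 0.0100) without brother pool 1 and -1.07 ± 0.25 (edgeR adjusted p = 0.639) with it. The call ended when brother pools 1 and 2 were both left out (edgeR adjusted p = 0.0697). Isolated pools were at 51.1, 47.7 and 45.1 CPM, all above the brother pools. XLOC_010657, also called without brother pool 1 (log2 fold change -10.03 ± 0.68 SE; edgeR adjusted p = 0.00379), lost that call when brother pool 2 was left out too (edgeR adjusted p = 0.0697) and under limma-voom (adjusted p = 0.0856).

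**Figure D3:**
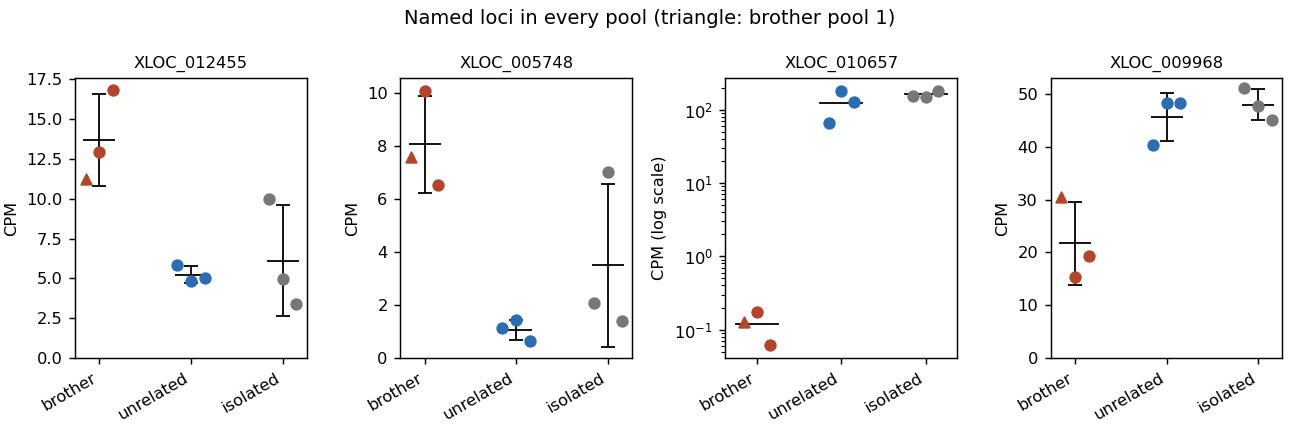
CPM of the 4 named loci in each pool of the brother, unrelated and isolated groups, with group means and, except on the log-scaled axis of XLOC_010657, the SD (n = 3). Brother and unrelated pools do not overlap in any panel, which the rule for naming loci required (triangle, brother pool 1), and isolated pools of XLOC_012455 and XLOC_005748 spread from near the unrelated to near the brother level.

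At the 52 loci that were lower by 8-fold or more, brother pool 1 was low as well. These loci were chosen with brother pools 2 and 3 and all unrelated pools, so their levels there are a description. Their median was 0.0312 and 0.0305 CPM in brother pools 2 and 3, and 0.469, 1.78 and 1.23 CPM in unrelated pools 1 to 3. In brother pool 1, which did not choose them, the median was 0.0508 CPM, and 48 of the 52 lay below all 3 unrelated pools, against 37.3% of all loci tested. The unrelated pools are the same ones that chose the loci, and most of the 52 passed the filter on low counts through them. The count of 48 is therefore a description and no independent support. Together the 52 summed to 10.8, 4.81 and 6.12 CPM in brother pools 1 to 3, and to 127, 474 and 335 CPM in unrelated pools 1 to 3. A large part of the unrelated sums, 65.0, 179 and 126 CPM, came from XLOC_010657 alone.

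Most of these loci were of low abundance, with a median of 1.14 CPM over the unrelated pools and 4 of the 52 at 10 CPM or more over the 6 pools. No count was seen in brother pools 2 and 3 for 9 of them, and 17 had at most 3 counts over all 3 brother pools. When each of those 9 was put at 3 counts over brother pools 2 and 3, the median was 33.2-fold lower. In the fit of all 6 pools 44 were still lower by 8-fold or more and 1, XLOC_010657, passed the edgeR test. With the same pools DESeq2 called 44, limma-voom 0 and limma-voom with quality weights 14. Without brother pool 1, DESeq2 called 49 of the 52, a robust edgeR fit 31, limma-voom 9 and limma-voom with quality weights 6. The calls rested on few pools: without brother pool 1 and a further pool, 0 remained called without brother pool 2, 1 without brother pool 3, 12 and 4 when it was unrelated pool 2 or 3, but 50 when it was unrelated pool 1. In each of these 5 fits 48 to 51 were still lower by 8-fold or more.

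Unrelated pool 1 had less of this group than the other unrelated pools, at a median of 26.9% of their level, against 101% over all loci tested. It was the lowest unrelated pool at 48 of the 52 loci, against 33.8% of all loci. Isolated pools summed to 373, 345 and 406 CPM for the 52 loci, of which XLOC_010657 alone gave 155, 151 and 179 CPM. The isolated sums lay between those of unrelated pools 2 and 3 and above that of unrelated pool 1. The low level of brother pools 2 and 3 is part of how the loci were chosen.

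**Figure D4:**
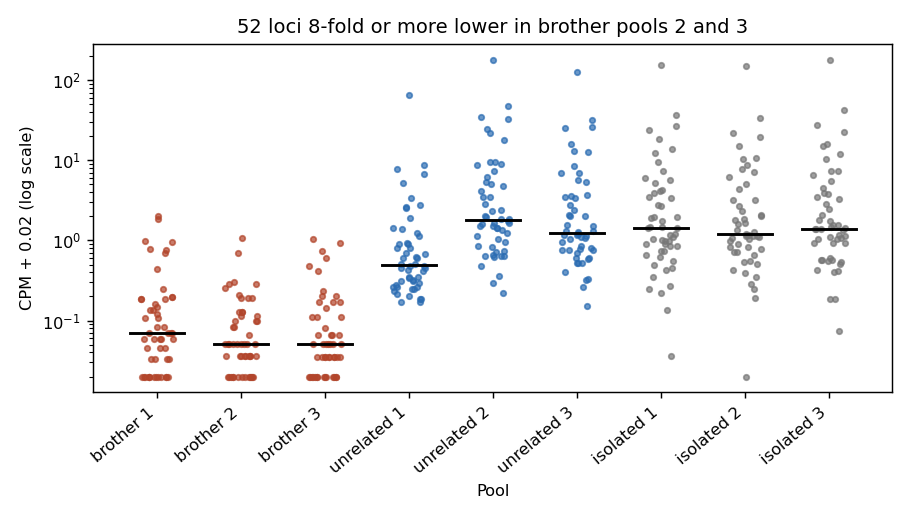
CPM plus 0.02 on a log scale of the 52 loci that were 8-fold or more lower without brother pool 1, in each of the 9 pools (points, loci; bars, medians). The 3 brother pools have medians of 0.0305 to 0.0508 CPM, unrelated pool 1 lies at 0.469, and the other unrelated and isolated pools lie at 1.18 to 1.78.

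Most of the 359 higher loci were abundant, and brother pool 1 did not share their direction as a group. The 308 under 2-fold had a median of 86.5 CPM over the unrelated pools, and the 51 others 1.13 CPM. The median level of all 359 was 57.0 CPM over the unrelated pools, against 7.88 CPM for all loci tested. At 100 CPM or more were 151 of them. Relative to the unrelated mean, the median log2 CPM of the 359 was 0.48 and 0.42 in brother pools 2 and 3, which chose them, and -0.16 in brother pool 1. Brother pool 1 was below all 3 unrelated pools at 218 of the 359 (background 37.3%) and above all of them at 64 (background 38.3%). As a share of all counts the higher loci made up 10.1% in brother pool 1, 13.8% and 13.7% in brother pools 2 and 3, and 10.9% to 11.7% in the unrelated pools. The 3 brother pools therefore spanned the unrelated pools on both sides.

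The isolated pools, which took no part in choosing the higher loci, stood closer to the unrelated level. They held 11.6% to 12.0% of counts in these loci, with median log2 differences from the unrelated mean of 0.00 to 0.10. Their mean was nearer the unrelated mean than that of brother pools 2 and 3 at 308 of the 359 loci (61.1% of all loci tested). All 3 isolated pools were below brother pools 2 and 3 at 310 of the 359, against 21.1% of all loci. Since brother pools 2 and 3 were selected as high at these loci, these counts describe the levels and carry no test. Of the 51 loci that were higher by 2-fold or more, 3 were over 8-fold higher. Only 11 of the 51 were at 10 CPM or more over the 6 pools. Brother pool 1 was above all unrelated pools at 16 of them and below all at 19 (38.3% and 37.3% of all loci).

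Of the 129 loci that were lower by under 8-fold, most of the 87 under 2-fold had brother pool 1 above the unrelated pools. The 42 of 2- to 8-fold were mixed. For the 87 under 2-fold, the median log2 difference from the unrelated mean was -0.59 and -0.46 in brother pools 2 and 3 and 0.46 in brother pool 1. Brother pool 1 was above all unrelated pools at 72 of the 87 and below all of them at 9 (38.3% and 37.3% of all loci). For the 42 between 2- and 8-fold, the medians were -1.68 and -1.47 in brother pools 2 and 3 and 0.66 in brother pool 1. Among these 42, brother pool 1 was above all unrelated pools at 24 and below all at 13, the latter near the share of all loci. All 3 isolated pools were above brother pools 2 and 3 at 63 of the 87 and 36 of the 42 (24.7% of all loci), a description only, because brother pools 2 and 3 were selected as low there. With all 6 pools in the fit, 83 of the 129 kept a negative log2 fold change and 0 passed the edgeR test. All of those pools but brother pool 1 had chosen the 129 as lower, so the kept sign is partly built in. DESeq2 called 12 of the 129 in those pools and limma-voom 0.

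**Figure D5:**
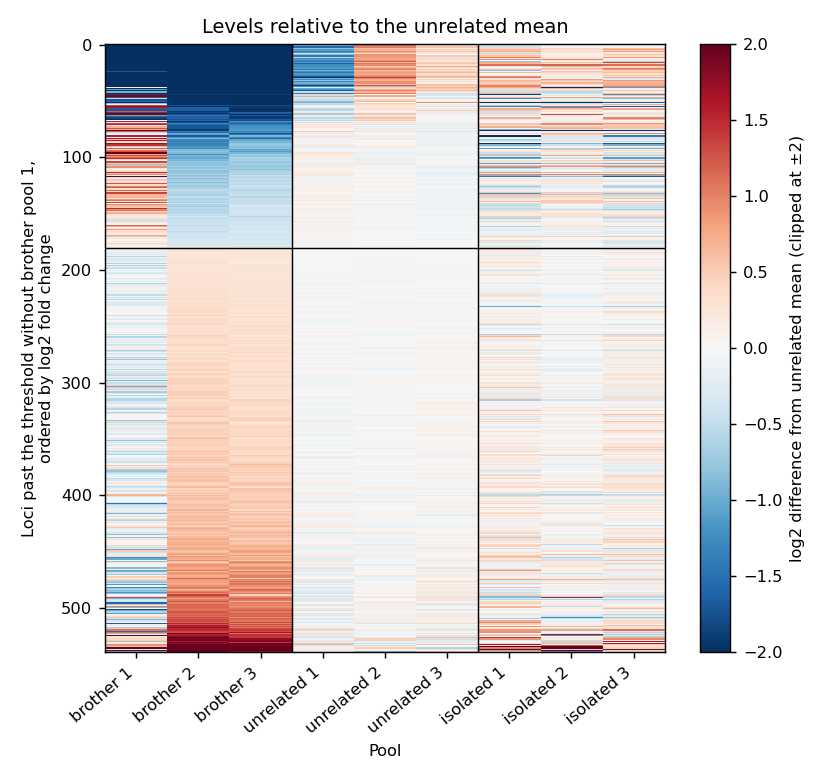
Log2 of CPM plus 0.05 minus the unrelated mean for the 540 loci called without brother pool 1, ordered by log2 fold change, in each of the 9 pools; the horizontal line parts 181 lower from 359 higher loci. Brother pool 1 shares the dark block of the most strongly lower loci with brother pools 2 and 3 and differs from them over most other rows, and the isolated pools are mostly near the unrelated level.

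In a description that needs no estimate of spread, gaps of over 2-fold were led by lower loci. All 3 brother pools were above all 3 unrelated pools at 683 loci (4.50% of those tested) and below them at 914 (6.02%). With 3 pools a side, a random order of pools alone would separate the groups at shares near these. These 2 counts are therefore not read as a difference between the groups. A gap of over 2-fold between the nearest pools was found at 8 loci above (0.0527%) and 70 below (0.461%), of which 3 and 52 were among the 540 and 44 were among the 52 lower by 8-fold or more. Without brother pool 1 the numbers were 45 above and 151 below, and without unrelated pool 1 they were 29 and 116. Leaving out brother pool 2, unrelated pool 2 or unrelated pool 3 gave 22, 22 and 19 loci above.

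Presence in a group and near absence in the other ran in a single direction. At least 30 counts in every unrelated pool and at most 3 counts over the brother pools were found at 6 of 12370 loci (0.0485%), and the reverse at 0 of 11757 (0%). The most abundant of the 6 had 168, 755 and 895 counts in the unrelated pools, 0, 0 and 1 in the brother pools, and 572, 671 and 753 in the isolated pools. The least abundant had 30, 131 and 134 counts in the unrelated pools and none in the brother pools, which makes it at least 81.3-fold lower when the brother group is put at 3 counts. All 6 were called lower without brother pool 1 (edgeR adjusted p 0.0132 to 0.0340), and none with all 6 pools (edgeR adjusted p 0.170 to 0.323). Without unrelated pool 1 the same rule found 28 loci, and 1 in the reverse direction.

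For most loci that were well measured, a difference over 2-fold lay outside the interval. The 95% interval of the log2 fold change, not adjusted over loci, was within 2-fold in both directions for 9640 of 15174 loci (63.5%) with all 6 pools and 10336 (68.1%) without brother pool 1. The share followed abundance. With all 6 pools it was 10.7% of 4094 loci under 1 CPM, 59.6% of 3872 at 1 to 10 CPM, 94.5% of 5121 at 10 to 100 CPM and 98.6% of 2087 at 100 CPM or more. The interval's median half-width on the log2 scale was 1.17 in the lowest class and 0.23 in the highest. Among the 100 most abundant loci, 99 had an interval within 2-fold in each fit, and 22 were called higher and 0 lower without brother pool 1 (edgeR). At 100 CPM or more 151 of the calls were higher and 9 lower, whereas under 1 CPM 14 were higher and 49 lower. The called share without brother pool 1 rose with abundance, from 1.54% of loci under 1 CPM to 7.67% at 100 CPM or more.

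The labels give the technical replicates different run and lane names, and each run held every pool. With all 6 pools, each technical replicate alone called 1 locus, XLOC_010657 (edgeR adjusted p = 0.00731 and 0.00713). Without brother pool 1, the first technical replicate alone called 269 loci (195 higher, 74 lower) and the second 419 (275 higher, 144 lower), of which 243 and 348 were among the 540. Of the 52 strongly lower loci, 50 and 49 were lower by 8-fold or more in the first and second replicate, and 32 and 36 were called. The 540 and the 52 were chosen on the sum of both replicates, so these overlaps are partly built in. Both replicates come from the same pools of heads, so they bear on sequencing and not on the females.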

How the data were processed

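The authors deposited 1 table of raw counts per locus, whole numbers with no normalisation, for 18 libraries. The submitters' processing notes name Trimmomatic 0.36, TopHat, Cufflinks and HTSeq. Not given in the sources used here are their roles, the build and annotation, and the handling of strand, overlaps and near-identical copies in counting, so loci that share reads cannot be separated. Stranded polyadenylated RNA libraries were read as 125 bp pairs, per the labels' protocols. Columns were matched to samples by condition, replicate number and the letter of the second technical replicate; those naming no male were taken as isolated.

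Technical replicates were summed. The 6 brother and unrelated pools were tested with edgeR 4.0.16 in R 4.3.3 (filterByExpr, TMM, quasi-likelihood F-test, Benjamini-Hochberg adjustment over all 15174 loci, threshold 0.05), and again without brother pool 1. Standard errors are the size of the log2 fold change over the square root of F. CPM shown are scaled over all 9 pools, and log2 CPM has a prior count of 2. DESeq2 1.42.0 and limma 3.58.1 were alternatives. The fits were tested on simulated data. Named loci, at most 2 per direction, are those past the threshold with all 6 pools, then without brother pool 1, whose pools did not overlap, by adjusted p and then size. The pools compared, the omission of brother pool 1 and the rules were chosen with earlier results of these data known. Of the 16752 loci, 540 had no counts in any library. Without molecular identifiers PCR reads are not independent molecules, so intervals and floors cover only counting error.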

Additional observations from a re-analysis of the deposited data

How the results depend on the processing

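Counts of called loci are given for all 6 pools (1) and then without brother pool 1 (540). DESeq2 called 102 and 1775, limma-voom 0 (619 at an unadjusted p under 0.05) and 337, limma-voom with quality weights 124 and 325, where brother pool 1 had a weight of 0.120, and duplicateCorrelation on separate libraries 13 and 1725. None of the 124, the 13 or the 0 included XLOC_010657. The balance of directions with all 6 pools differed by method. DESeq2 called 32 higher and 70 lower, limma-voom with quality weights 97 higher and 27 lower, and duplicateCorrelation 5 higher and 8 lower. Library sizes unscaled gave 1193 in the second fit, the first technical replicate alone 269, and a minimum change of 2-fold 145. Leaving out single pools gave 0 to 540 and 7 to 469. Without unrelated pool 1 the first fit called 4. In the second fit the counts were 7, 272, 469, 50 and 46 for brother pools 2 and 3 and unrelated pools 1 to 3. Upper-quartile or RLE scaling, no filter, a minimum of 1 CPM, a robust fit and the second technical replicate alone kept both counts within 1.5 times. The totals hide losses among the 52 loci lower by 8-fold or more. Without brother pool 1, the minimum of 1 CPM left 14 of them called, the robust fit 31 and the second technical replicate 36. The other settings of this list left 48 to 52. A replicate block in the fit called 3 and 1183 loci. Replicate numbers are not stated to pair the pools, so no pairing was assumed. Pools 1, 2 and 3 of both groups deviated from their means with correlations of 0.197, 0.0309 and 0.127, not all over 0.1. Pools of unlike number had correlations of -0.193 to 0.167. Gaps of over 2-fold between the nearest pools numbered 11 to 45 above and 73 to 151 below when single pools were left out. The loci present only in unrelated pools numbered 6 to 28, and 18 with a minimum of 10 counts, and those present only in brother pools 0 to 1. The causes of these changes were not tested. Depth limits what loci under 1 CPM can show.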

Other observations

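The identifier just before XLOC_005748, singled out after its values were seen, was at 0.533, 0.578 and 0.504 CPM in brother pools 1 to 3 and at 0.0454, 0.0626 and 0.0660 CPM in unrelated pools 1 to 3. Its log2 fold change without brother pool 1 was 3.17 ± 0.43 (SE; edgeR adjusted p = 0.0218), and with all 6 pools it was 3.16 (edgeR adjusted p = 0.175). Isolated pool 2 was at 1.22 CPM for this locus and isolated pools 1 and 3 at 0.148 and 0.0272 CPM, the same order of pools as at XLOC_005748. The unrelated levels of this neighbour of XLOC_005748 lay near the floor, as 3 counts correspond to 0.0283 to 0.0454 CPM there. Whether it and XLOC_005748 share reads was not tested. The identifier just before XLOC_012455 was also called without brother pool 1 (log2 fold change 0.91, edgeR adjusted p = 0.0254). With all 6 pools it was not called (edgeR adjusted p = 0.823). Its isolated pools, at 29.5 to 34.4 CPM, lay inside its brother range of 26.6 to 39.5 CPM.

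The 100 most abundant loci of each pool held 27.5% of counts in brother pool 1, 32.3% and 31.3% in brother pools 2 and 3, 29.2% to 29.5% in unrelated pools and 29.9% to 32.1% in isolated pools. Loci at 1 CPM or more numbered 11443 in brother pool 1, 10837 and 10815 in brother pools 2 and 3, and 10934 to 10992 in unrelated pools.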
